A study of Mus musculus with 24 samples.

Results

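miR-204-5p and miR-211-5p (mmu-miR-204-5p and mmu-miR-211-5p in miRBase) are the 5′ arms of 2 mouse miRNA hairpins and carry the same seed, the bases 2 to 8 with which a miRNA pairs to its targets. They were 2 of the 1009 miRNAs listed in the mammary gland and 2 of the 544 that reached, as the mean of a stage, 1 RPM (reads per 1000000 miRNA reads). The pair was chosen by the level of miR-204-5p in these libraries, which was known to be lower at Lac7 than at P18, and miR-211-5p was taken with it for its sequence. Small RNA was sequenced from 24 female C57BL/6 mice without any treatment or engineered allele, with 1 library per mouse. Of these mice, 6 were adults of 10 weeks (W10), 6 were at day 18 of gestation (P18), 6 were at day 7 of lactation (Lac7) and 6 were involuting (Inv3, day 3), with suckling ended and the gland shrinking back. The ages of the pregnant, lactating and involuting mice are not given in the sources used here. The study used homogenates of whole abdominal and inguinal glands, so that in each value fewer cells of a type and less RNA per cell cannot be told apart.

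miRNAs are short RNAs cut from hairpin precursors that lower the translation and stability of mRNAs whose sites match their seed. The genes of miR-204 and miR-211 lie inside genes of the TRPM ion channel family. miR-204 is best known from the retinal pigment epithelium, the lens and the choroid plexus, and it represses Runx2, a transcription factor of bone and of mammary epithelium. miR-211 is best known from melanocytes, where MITF, the main transcription factor of pigment cells, drives its host gene Trpm1.

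Between 660346 and 1165321 miRNA reads were counted per library, with the fewest at Lac7 (660346 to 751890). A single read was worth 0.858 to 1.514 RPM, and a count of 0 allows 2.57 to 4.54 RPM (3 reads, counting error only). Values are scaled to the reads on all listed miRNAs, so each level also depends on what the other miRNAs take up. The tissue was also described with 10 lists of miRNAs. They were for mammary epithelium, fibroblasts, fat, muscle, endothelium, lymphocytes, myeloid cells, red blood cells, neural and eye tissue, and Runx2. Every listed member was detected at each stage except miR-129-5p of the neural and eye list, which had 0 reads at Lac7. Some had very few reads, such as miR-193a-3p with 2 at P18, 3 at Lac7 and 1 at Inv3. Members of every list were found, so detection does not check the label of the tissue.

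The mature sequences are printed here because a single base separates the 2 members, and the assignment of each read to one or the other rests on it. They are from RefSeq (GRCm38.p6), 5′ to 3′, with the seed in capitals.
miR-204-5p: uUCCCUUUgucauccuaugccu
miR-211-5p: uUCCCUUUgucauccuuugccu
miR-7670-3p: uUCCCUUUcugaauaucuguaga
miR-204-3p: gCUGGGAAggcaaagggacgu
miR-211-3p: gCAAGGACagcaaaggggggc
miR-204-5p and miR-211-5p were identical at 21 of 22 positions and differed by A17U, counted from the 5′ end with the base of miR-204-5p first. miR-7670-3p was the other listed miRNA with this seed, and beyond the seed it departed from the pair, with 13 of 22 positions identical to miR-204-5p. It was read 5 times in the 24 libraries, so nearly all reads with the seed were from the 2 members, with 3919 reads of miR-204-5p and 209 of miR-211-5p.

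The mature miR-204-5p lies at chr19:22750610-22750631 (GRCm38, plus strand) and miR-211-5p at chr7:64205831-64205852 (plus strand). Both hairpins are intronic. Mir204 lies within intron 6 of the Trpm3 transcript with the most exons (27) and overlaps an exon in 0 of the 18 Trpm3 transcripts that span it. Mir211 lies within intron 6 of the Trpm1 transcript with the most exons (27) and overlaps an exon in 0 of 12 spanning transcripts. Each hairpin has the strand of its host. The precursors are shown because each was represented by its 5′ arm. They are from the same build, with both arms in capitals.
Mir204: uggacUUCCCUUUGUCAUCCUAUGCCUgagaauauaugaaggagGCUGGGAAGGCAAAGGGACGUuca
Mir211: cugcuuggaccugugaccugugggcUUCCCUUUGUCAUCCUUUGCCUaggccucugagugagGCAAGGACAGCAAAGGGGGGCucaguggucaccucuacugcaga
The 3′ arm of Mir204, miR-204-3p, had 2 reads in all, 1 in Inv3 mouse 2 and 1 in W10 mouse 5, against the 3919 of its 5′ arm. It stayed below the mean of 1 RPM and was not tested. miR-211-3p was not among the listed miRNAs, so the arms of Mir211 cannot be compared here. The 3′ arms have different seeds and share 14 of 21 positions.

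miR-204-5p was highest at P18 and lowest at Lac7, and the order of the stage means was P18, W10, Inv3 and Lac7. These levels chose the pair and are given as a description, with no test. At P18 the 6 mice had 380.08, 448.40, 309.00, 519.54, 356.16 and 487.34 RPM. At W10 they had 91.66, 143.39, 203.00, 271.16, 121.57 and 132.27 RPM. All P18 mice lay above all W10 mice, and the mean was 2.6-fold higher at P18 (417 ± 81.5 against 160.5 ± 65.4 RPM, SD, n = 6 each). Among the tested miRNAs, 9.74% had all P18 mice above all W10 mice.

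The lactating mice had 57.05, 29.44, 26.69, 49.21, 30.29 and 21.07 RPM of miR-204-5p. The highest of them lay below the lowest W10 mouse, and the share of tested miRNAs with this property was not counted. The P18 mean was 11.7-fold that of Lac7 (35.6 ± 14.2 RPM). All Lac7 mice were below all P18 mice in 19.1% of the tested miRNAs, a property that the choice of miR-204-5p had used. The involuting mice had 102.98, 82.81, 48.42, 44.03, 58.10 and 44.32 RPM. Inv3 and Lac7 mice overlapped, with 3 Inv3 mice above all Lac7 mice and a mean 1.78-fold higher (63.4 ± 24.2 RPM). Inv3 and W10 also overlapped, through Inv3 mouse 1, the only one of the 6 above the lowest W10 mouse. By these spreads P18 stood apart from each other stage, while Inv3 overlapped with Lac7 and, only through Inv3 mouse 1, with W10. Overlap of single mice is no test, and Inv3 is tested against W10 below.

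**Figure D1:**
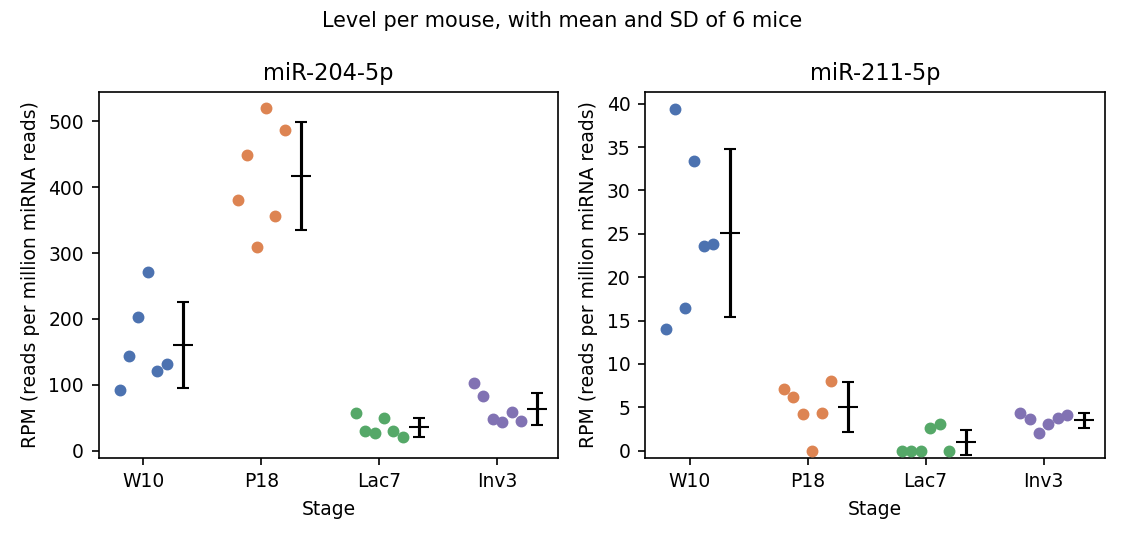
RPM of miR-204-5p (left) and miR-211-5p (right) in each mouse (points, in the order of the mouse numbers) at W10, P18, Lac7 and Inv3, with the mean and SD of 6 mice in black. The P18 mice have the highest miR-204-5p, from 309 to 520 RPM, while the W10 mice have the highest miR-211-5p, from 14.0 to 39.4 RPM.

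The rank of miR-204-5p among detected miRNAs followed the same order, from 90 of 785 at P18 and 133 of 822 at W10 to 170 of 769 at Inv3 and 193 of 645 at Lac7. Its coefficient of variation was 19.5% at P18, where 290 to 479 reads per mouse give 4.99%, and 40.8% at W10, where counting gives 7.91%. At Lac7, where the mice had 15 to 38 reads, it was 39.7% against 20% from counting. P18 was the most even stage by this measure. For miR-211-5p the coefficient was 38.7% at W10, against 19.7% from counting, and at Inv3, with 2 to 5 reads per mouse, it was 24.5%, below the 53.5% from counting.

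Scaling with DESeq2 size factors, which set the median miRNA level between libraries, left the order of the stages in place. The P18 mean was then 3.11-fold that of W10 and 9.4-fold that of Lac7, and the W10 mean was 1.92-fold that of Inv3, against 2.53-fold in RPM. In 9 of 544 tested miRNAs (1.65%), all P18 mice lay above all 18 mice of the other stages, miR-204-5p among them, and its high P18 level had itself entered the choice of the pair. The others, named after their values were seen, were miR-138-5p, miR-18a-5p, miR-20a-5p, miR-25-3p, miR-93-5p, miR-298-5p, miR-335-3p and miR-542-3p. miR-18a-5p and miR-20a-5p belong to the miR-17-92 cluster, and miR-25-3p and miR-93-5p to the related miR-106b-25 cluster, both known from proliferating cells. The ratio of the P18 mean to the Lac7 mean, which was 11.7 for miR-204-5p, was 21.4 for miR-298-5p, 8.1 for miR-335-3p and 1.29 to 2.69 for the other 6. miR-298-5p had a lower level, with means of 15.9 RPM at P18 and 0.747 RPM at Lac7.

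miR-211-5p had its highest level at another stage, W10. The 6 mice had 14.02, 39.35, 16.46, 33.36, 23.61 and 23.87 RPM there, or 155 reads in all. At P18 they had 7.13, 6.21, 4.26, 0, 4.29 and 8.05 RPM, or 29 reads. All P18 mice lay below all W10 mice, as for 16.9% of the tested miRNAs, and the W10 mean of 25.1 ± 9.72 RPM was 5.03-fold that of P18 (4.99 ± 2.88 RPM), with a 95% counting interval of 3.45 to 7.95. Between the same stages miR-204-5p was higher at P18, so the members of the pair moved in opposite directions. miR-211-5p was 1 of 33 tested miRNAs (6.07%) with all W10 mice above all 18 others.

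At Lac7 miR-211-5p had 0 reads in 4 of 6 mice and 2 reads in each of mice 4 and 5, 2.66 and 3.03 RPM. A count of 0 allows 3.99 to 4.54 RPM there, so these levels were at the limit of the depth. At Inv3 every mouse had reads, with 4.29, 3.6, 1.98, 3.07, 3.81 and 4.15 RPM (21 reads). The Inv3 mean was 3.67-fold that of Lac7, with a counting interval of 1.24 to 14.7, and the P18 mean was 1.43-fold that of Inv3, with an interval of 0.786 to 2.63. The P18 mean was 5.26-fold that of Lac7, with an interval of 1.84 to 20.5. The intervals of both ratios to Lac7 lay above 1, but they cover counting only, and the mice of P18, Inv3 and Lac7 overlapped in each pairing of these stages.

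**Figure D2:**
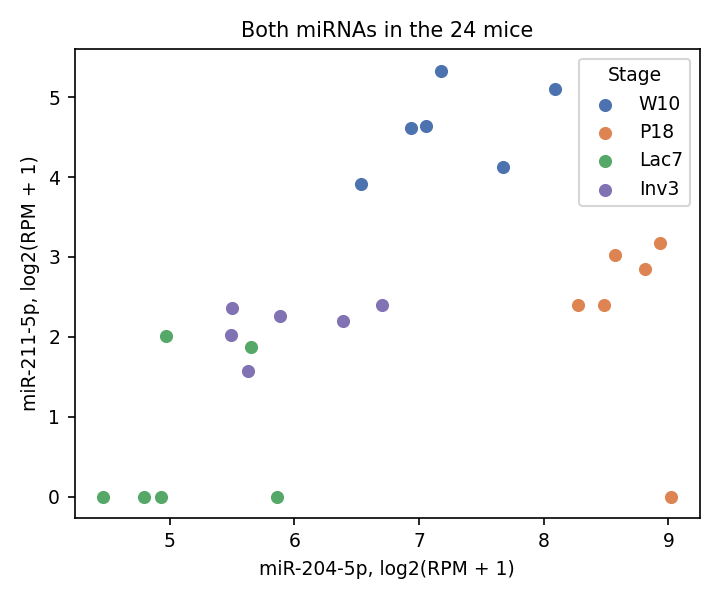
log2(RPM + 1) of miR-204-5p (x axis) and miR-211-5p (y axis) in the 24 mice, coloured by stage. The W10 mice lie highest on the y axis and the P18 mice farthest right, with P18 mouse 4 at 520 RPM of miR-204-5p and 0 RPM of miR-211-5p.

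Because only 1 base separates the members, their shares of the pair's own reads were compared, a measure that does not depend on the scaling of the libraries and was chosen after the data were seen. At W10 miR-211-5p made up 13.9% of the reads of the pair (155 of 1113, 95% Wilson interval 12.02 to 16.08%), and 7.5 to 21.5% in single mice. At P18 it made up 1.19% (29 of 2443, 0.828 to 1.70%), and no P18 mouse was above 1.84%. The share was 2.60% at Lac7 (4 of 154, 1.01 to 6.49%) and 5.02% at Inv3 (21 of 418, 3.31 to 7.56%). These stage intervals pool the reads of 6 mice and cover counting only, not the spread between mice. P18 mouse 4 had 0 reads of miR-211-5p among 479 reads of the pair, which allows a share of up to 0.626%. The other 5 P18 mice had 1.19 to 1.84%. How often a read error at the base that differs moves a read from one member to the other was not tested.

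**Figure D3:**
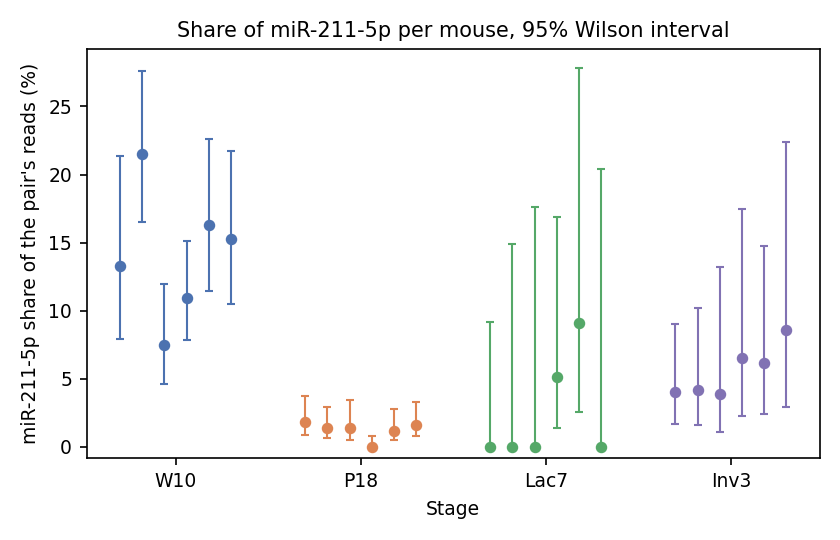
Share of miR-211-5p among the reads of the pair in each mouse, in percent, with its 95% Wilson interval, by stage. The W10 mice lie between 7.5 and 21.5% and the P18 mice between 0 and 1.84%, and the Lac7 intervals are wide because each mouse had 15 to 39 reads of the pair.

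The comparison of Inv3 with W10, whether the involuting gland has returned to the levels of the adult gland, contrasts neither P18 nor Lac7 and was tested. Its p is not independent of the choice of the pair, which was made with earlier results of these data known. The fit also took its error from all 24 libraries, those of P18 and Lac7 included. Both members were lower at Inv3. For miR-204-5p the log2 fold change in limma was -1.31 (SE 0.26, Benjamini-Hochberg adjusted p = 0.00026 over 544 miRNAs, n = 6 against 6), with 5 of 6 Inv3 mice below all W10 mice. For miR-211-5p it was -2.48 (SE 0.46, limma adjusted p = 0.00012), and all 6 Inv3 mice were below all W10 mice, as for 12.1% of the tested miRNAs. In RPM the means differed 2.53-fold for miR-204-5p and 7.21-fold for miR-211-5p, the latter with a counting interval of 4.64 to 12.2. A call needed a limma adjusted p under 0.05 and a change of 1 or more on the log2 scale in either direction, and by this rule 19.5% of the tested miRNAs fell and 5.51% rose from W10 to Inv3.

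The median miRNA was itself lower at Inv3 by a log2 fold change of -0.41, and relative to it miR-204-5p was at -0.90 and miR-211-5p at -2.07. After scaling by size factors the median was -0.10 and the values relative to it were -0.84 and -2.03. The call of miR-204-5p ended with this scaling, since its fold change of -0.94 is under the minimum, although the limma adjusted p was 0.0062, and likewise with edgeR (-0.91) and DESeq2 (-0.93). Over the 21 alternatives the adjusted p of miR-204-5p ranged from 7e-05 to 0.0062, and over the 20 of miR-211-5p from 1.3e-07 to 0.026. The share of called miRNAs that were higher at Inv3 was 22.1% in RPM, 38.8% with size factors and 45.9% with edgeR.

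The share of miR-211-5p in the pair also differed between these stages. It was 14.1 ± 4.805% at W10 and 5.56 ± 1.87% at Inv3 (mean of 6 mice, SD), a difference of -8.58 percentage points (two-sided exact permutation p = 0.00433, the smallest possible being 0.00216 over 924 assignments). Of the 6 Inv3 mice, 5 were below all W10 mice. In these mice miR-211-5p was thus lower at Inv3 relative to miR-204-5p as well as in RPM. The share was chosen after the data were seen, and its test uses the same reads as the fold changes of the members. Its p is therefore given as a description. Leaving out each mouse in turn gave differences between -9.91 and -7.10 points.

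The miRNAs whose levels were most like those of miR-204-5p over the 24 libraries were found among 187 others that reached a mean of 100 RPM at 1 or more stages. The correlations are a description over libraries that share their stage, depth and scaling. They were highest for miR-93-5p (Pearson's r = 0.91), miR-431-5p (0.89), miR-25-3p (0.89), miR-3071-3p (0.84) and miR-434-5p (0.84). miR-93-5p and miR-25-3p lie within 265 bases of each other on chromosome 5. The other 3 lie within 4892 bases on chromosome 12 (GRCm38), in the imprinted region between Dlk1 and Dio3. None of them is on chromosome 19 with Mir204.

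The profiles of these neighbours differed in where they were closest to miR-204-5p. miR-93-5p had 5685 ± 485 RPM at P18, against 3546 ± 268 at W10, 2923 ± 160 at Inv3 and 2343 ± 204.4 at Lac7 (SD, n = 6), so that it had the peak at P18 with smaller ratios. The P18 mean of miR-25-3p was 10632 RPM and its Lac7 mean 4771 RPM. miR-431-5p had 23.6 ± 3.65 RPM at Lac7 and 47.2 ± 20.6 at Inv3, against 124 ± 17.8 at W10 and 149 ± 19.1 at P18. It and miR-434-5p (248, 278, 47.6 and 130 RPM from W10 to Inv3) had the low level at Lac7, while their P18 and W10 mice overlapped. miR-3071-3p was at 154, 178, 44.1 and 74.7 RPM.

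The levels least like those of miR-204-5p were those of miR-3068-5p (r = -0.88), miR-1839-5p (-0.85) and miR-30a-5p (-0.80), which were lowest at P18 and highest at Lac7. miR-3068-5p had 763 RPM at Lac7 and 221 at P18, with 347 at W10 and 444 at Inv3. With size factors r was 0.80 for miR-93-5p, 0.72 for miR-25-3p and 0.87 for miR-431-5p, and miR-25-3p then ranked 9 in place of 3. The r of miR-211-5p with miR-204-5p was 0.46. Its own mean over all libraries was 8.63 RPM, under the 10 RPM set for naming miRNAs like it.

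**Figure D4:**
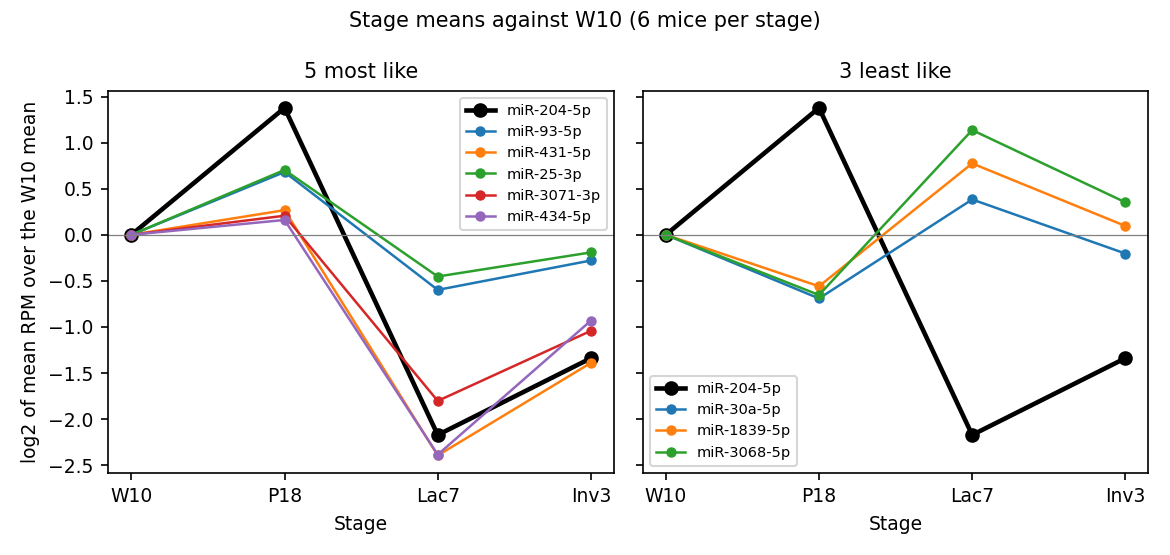
log2 ratio of the stage mean to the W10 mean in RPM (6 mice per stage) for miR-204-5p in black, with the 5 miRNAs most like it (left) and the 3 least like it (right). miR-204-5p, at 160.5 RPM at W10, is above all 5 at P18, and miR-3068-5p, miR-1839-5p and miR-30a-5p are above their W10 mean at Lac7.

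miRNAs known to repress Runx2 along with miR-204 were set beside it, namely miR-23a-3p, miR-30c-5p, miR-34c-5p, miR-133a-3p, miR-135a-5p, miR-137-3p, miR-205-5p, miR-217-5p, miR-218-5p and miR-338-3p. From W10 to P18, 0 of these 10 rose and 5 fell, with a median log2 fold change of -0.98, against 7.54% of the tested miRNAs that rose, 20.0% that fell and a median of -0.32. miR-338-3p fell from 570 to 95.3 RPM (log2 fold change -2.58, SE 0.26, limma adjusted p = 8e-09) and miR-218-5p from 77.2 to 34.5 RPM. miR-133a-3p, which is also a muscle miRNA, fell from 9618 to 775 RPM. miR-204-5p was higher at P18, unlike each of the members that fell. The share of called miRNAs that were higher at P18 was 27.3% in RPM, 38.7% with size factors and 46.6% with edgeR.

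From P18 to Lac7, 2 of the 10 fell and 0 rose, against 22.6% and 7.54% of the tested miRNAs. These were miR-23a-3p, from 8814 to 4025 RPM, and miR-205-5p, a miRNA of basal epithelium, from 461 to 155 RPM. From Lac7 to Inv3, 3 rose and 0 fell, against 16.5% and 10.3%, and 5 rose without Lac7 mouse 5 or without Inv3 mouse 3. From W10 to Inv3, 4 fell and 0 rose, against 19.5% and 5.51%. The share of higher calls was 25.0% from P18 to Lac7 in RPM and 39.3% with size factors, and 61.6% and 54.9% from Lac7 to Inv3.

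The neural and eye list held 9 tested miRNAs that, like miR-204, are best known outside the mammary gland. From W10 to P18, 1 of them rose and 4 fell (median log2 fold change -0.76), where 7.54% of all tested miRNAs rose, 20.0% fell and the median was -0.32. The one that rose, miR-138-5p, went from 118 to 247 RPM (log2 fold change 1.07, SE 0.18, limma adjusted p = 1.4e-05) and fell to 91.6 RPM at Lac7. miR-184-3p, abundant in the cornea and lens, fell from 509 to 47.7 RPM from W10 to P18. miR-7a-5p, the other leading member, was at 147, 206, 394 and 151 RPM from W10 to Inv3 and thus highest at Lac7, where miR-204-5p was lowest. From P18 to Lac7 3 of the 9 fell and 0 rose (22.6% and 7.54% of all tested). From Lac7 to Inv3 3 rose and 1 fell (16.5% and 10.3%). From W10 to Inv3 3 fell and 0 rose (19.5% and 5.51%).

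All lists of cell types except the endothelial one had members called between stages. The part of the cell types in the levels of miR-204-5p and miR-211-5p was not tested. The counts of each list are read against all 544 tested miRNAs, of which 7.54% rose and 20.0% fell from W10 to P18. At Lac7 against P18 7.54% rose and 22.6% fell, at Inv3 against Lac7 16.5% rose and 10.3% fell, and at Inv3 against W10 5.51% rose and 19.5% fell. Of 10 epithelial miRNAs, the miR-200 and miR-183 families with miR-203-3p and miR-205-5p, 8 rose and 0 fell from W10 to P18, when miR-204-5p was also higher. From P18 to Lac7, 6 rose and 1, miR-205-5p, fell, while miR-204-5p was lower. Summed over the list, W10 mice had 21710 to 26419 RPM, P18 mice 58767 to 73278, Lac7 mice 127228 to 147216 and Inv3 mice 29563 to 86488. Thus at the lowest level of miR-204-5p the summed level of the epithelial list was at its highest. Not every member followed the sum. miR-205-5p was lowest at Lac7 (155 RPM, against 437 at W10, 461 at P18 and 688 at Inv3). miR-203-3p was highest at P18, with 6567 RPM against 4943 at Lac7. miR-200a-3p, the leading member, was at 8548 RPM at W10 and 73975 RPM at Lac7, and miR-200b-3p at 4675 and 31252 RPM. From Lac7 to Inv3, 7 epithelial miRNAs fell and 1 rose, and from W10 to Inv3 7 rose and 0 fell.

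The 5 miRNAs of the lymphocyte list were lowest at Lac7, like both members of the pair. Of them, 4 fell from W10 to P18, 5 fell from P18 to Lac7, 5 rose from Lac7 to Inv3, and 3 fell from W10 to Inv3, while 20.0%, 22.6%, 16.5% and 19.5% of all tested miRNAs were called in these directions. Summed, they took 27163 to 50048 RPM in W10 mice, 7464 to 23520 in P18 mice, 3774 to 12016 in Lac7 mice and 12818 to 25019 in Inv3 mice. Its order of stages differed from that of miR-204-5p at P18. The leading members, miR-142a-5p and miR-142a-3p, were at 31988 and 4756 RPM at W10 and 5354 and 797 RPM at Lac7. They held most of the sum, whose mean was 40958 RPM at W10. As miR-142a is a miRNA of leukocytes, not of lymphocytes alone, the sum does not single out lymphocytes. The 2 miRNAs of myeloid cells, miR-223-3p and miR-223-5p, both rose from Lac7 to Inv3 (16.5% of all tested), 1 fell from P18 to Lac7 (22.6%), and their summed level was 715 to 903 RPM at Lac7 and 1193 to 2410 RPM at W10.

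Of all tested miRNAs, 7.54% rose and 20.0% fell from W10 to P18, and 7.54% and 22.6% from P18 to Lac7. The shares were 16.5% and 10.3% from Lac7 to Inv3, and 5.51% and 19.5% from W10 to Inv3. Of 6 muscle miRNAs, 4 fell from W10 to P18 and 0 were called from P18 to Lac7. Of the same 6, 3 fell from Lac7 to Inv3 and 6 fell from W10 to Inv3. Their summed level spread from 2434 to 24712 RPM between W10 mice, led by miR-133a-3p and miR-1a-3p. Of 6 miRNAs of fat, led by miR-103-3p and miR-196a-5p, 3 fell from W10 to P18, 0 were called from P18 to Lac7, 2 fell from Lac7 to Inv3 and 3 fell from W10 to Inv3. The mean sum of the fat list was highest at Lac7 (56857 RPM, against 41563 at W10), where miR-103-3p alone had 53504 RPM. There miR-196a-5p was at its lowest, with 1463 RPM, so the sum mostly follows miR-103-3p. Of 8 fibroblast miRNAs, led by miR-143-3p and miR-199a-3p, 1 fell from W10 to P18, 4 fell from P18 to Lac7, 4 rose from Lac7 to Inv3, and 1 rose and 1 fell from W10 to Inv3. Of 4 miRNAs of red blood cells, led by miR-451a and miR-144-3p, 2 fell from W10 to P18, 1 rose from P18 to Lac7, 1 fell from Lac7 to Inv3 and 0 were called from W10 to Inv3. From W10 to P18, when 20.0% of all tested miRNAs fell, the fibroblast count of 1 of 8 is too small to set apart from that share. It ran from 0 to 2 with single mice left out. The other counts of 1 or 2 in these lists are likewise too small to set apart from the shares of all tested miRNAs. Neither endothelial miRNA, miR-126a-3p or miR-126a-5p, was called in any of the 4 comparisons.

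**Figure D5:**
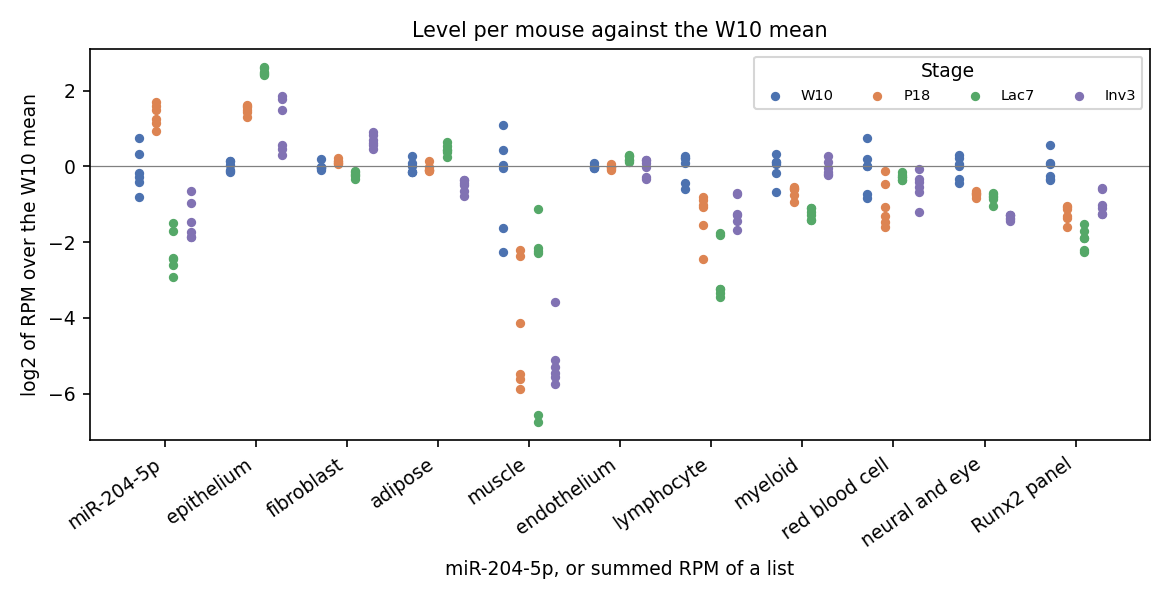
log2 ratio to the W10 mean in each mouse, for miR-204-5p and for the summed RPM of each of 10 lists of miRNAs, coloured by stage. The sum of the epithelial list is highest at Lac7 (127228 to 147216 RPM), where miR-204-5p is lowest, and the muscle miRNAs spread most between mice.

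Within a stage, the level of miR-204-5p was compared with that of miR-211-5p and with the summed level of each of the 10 lists over the 24 mice, after subtracting the stage means of log2(RPM + 1). None of these 11 relations passed adjustment. With miR-211-5p Pearson's r was 0.14 (permutation p = 0.52, adjusted 0.70) and Spearman's rho 0.36 (permutation p = 0.09, adjusted 0.30), and r was 0.06 without the 2 mice farthest from the median of miR-204-5p, W10 mouse 4 and Inv3 mouse 1. Mice with more miR-204-5p than others of their stage were thus not shown to have more miR-211-5p. The largest was with the Runx2 list, where r was 0.58 (permutation p = 0.0094, adjusted 0.10) and rho 0.46 (permutation p = 0.039, adjusted 0.30). It was 0.37 without the same 2 mice, so it rested in part on them, and it passed adjustment without W10 mouse 3 (r = 0.68, adjusted permutation p = 0.032) or without Lac7 mouse 4 (r = 0.70, adjusted permutation p = 0.019). Within single stages this r was 0.97 at P18, 0.96 at Inv3, 0.54 at W10 and 0.12 at Lac7. The summed level was mostly that of miR-23a-3p, with means of 8814 of 11822 RPM at P18 and 12043 of 14550 RPM at Inv3. At W10 the muscle miRNA miR-133a-3p made up 9618 of 27938 RPM. At P18 the mean of miR-133a-3p was only 775 RPM, but its SD of 813 RPM was near the 933 RPM of miR-23a-3p. Both thus entered the spread of the sum between P18 mice. These r therefore describe the leading members more than the list, and relations with single members were not tested.

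With the endothelial list r was -0.49 (permutation p = 0.024, adjusted 0.13) and rho -0.34 (permutation p = 0.14, adjusted 0.30), and r was -0.38 without the 2 mice. Within single stages this r was -0.96 at Inv3, 0.66 at P18, 0 at W10 and -0.42 at Lac7. For the other 8 lists r lay between -0.37 (epithelium) and 0.31 (myeloid cells), with adjusted permutation p of 0.46 to 0.78. In the Inv3 mice, mice 1 and 2 had the most miR-204-5p, 102.98 and 82.81 RPM. They also had the lowest of the 6 summed levels of the epithelial list (32885 and 29563 RPM) and the highest of the lymphocyte list (24576 and 25019 RPM), whereas Inv3 mouse 6, at 44.32 RPM, had 86488 and 17262 RPM. Mice 1 and 2 had the lowest sums of the endothelial list as well, 12987 and 12532 RPM. Inv3 mouse 5, at 58.10 RPM, had a low epithelial sum of 35249.5 RPM but 16896 RPM of the lymphocyte list, less than mouse 6. At P18 the order was the opposite, with an r of miR-204-5p over 6 mice of 0.92 with the epithelial and -0.49 with the lymphocyte list, against -0.86 and 0.88 at Inv3. This comparison of single mice was made after the values were seen and was not tested.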

How the data were processed

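Small RNA was extracted with the mirVana kit from whole abdominal and inguinal glands of 24 female C57BL/6 mice, and sequenced as QIAseq miRNA libraries. Lactation day 7 and involution day 3 are as the labels and the study have them, and the series' design text has these days the other way round. The submitters' processing notes name Trimmomatic 0.36, cutadapt, FastQC, MultiQC and GRCm38. The authors assigned reads with QuickMIRSeq to miRBase 22 and deposited RPM, reads per 1000000 reads on listed miRNAs. Whether molecular identifiers were counted is not given in the sources used here. Whole reads were recovered for 100% of values (within 0.006 RPM), and no pair of libraries of a stage agreed within sampling noise (lowest chi-square per degree of freedom 9.63).

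log2(RPM + 1) was fitted for the 544 miRNAs whose mean reached 1 RPM at a stage, over all 24 libraries with limma 3.58.1 (eBayes with a trend) in R 4.3.3, two-sided, with Benjamini-Hochberg adjustment over the 544. Calls needed an adjusted p under 0.05 and a log2 change of 1 or more in size. Relations between mice used 100000 permutations within stages (20000 for alternatives). The mice are separate animals numbered within each stage. Same-numbered mice had a mean correlation of -0.05 over 33 pairs, against 0.0 over 183 other pairs, so no pairing was used. Alternatives were pseudocounts of 0.1 and 10, no filter, a filter at 100 RPM, a fit of the 12 libraries compared, a block for the mouse number, edgeR 4.0.16 and DESeq2 1.42.0 on recovered reads, size factors, stage medians, and each mouse left out in turn. Permutations, intervals and plots were made in python 3.11.15 with scipy 1.17.1, numpy 2.4.6, matplotlib 3.10.9 and pandas 2.3.3. The fits were tested on simulated data.

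The members and lists were chosen with earlier results of these data known. The miRNAs named are the 2 members, the other arms of their hairpins, listed miRNAs with the same seed, the 5 most and 3 least correlated with miR-204-5p among those with at least 100 RPM at a stage, and the 2 highest members of each list. Other names in the text were added after their values were seen, except where a list is written out. Sequences and positions are from RefSeq and GENCODE tables for GRCm38.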

Additional observations from a re-analysis of the deposited data

Results flagged for a closer look

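The share of miR-211-5p in the reads of the pair at P18 was 0.0% in mouse 4, against 1.19 to 1.84% in the other 5 mice of the stage. Dixon's test set it apart (its gap to the next mouse was 0.646 of the range, above the 95% critical value), in 1 of 12 groups of 6 mice examined, and chance alone sets apart about 1 in 20 such groups. The mouse had 479 reads of miR-204-5p, the most of any library.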

How the results depend on the processing

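Depth limits miR-211-5p most, with 4 reads at Lac7 and 29 at P18, and RPM in each library depends on the other miRNAs, which is why size factors moved fold changes. The fall of miR-204-5p from W10 to Inv3 ended as a call with edgeR (-0.91), DESeq2 (-0.93) and size factors (-0.94), and that of miR-211-5p stayed a call under each alternative that could be run, with -2.76 at a pseudocount of 0.1 and -1.34, the smallest change, at a pseudocount of 10. The filter at 100 RPM removed miR-211-5p, and miR-204-3p, under the filter at 1 RPM, had no value. Leaving out each mouse gave -1.46 to -1.14 for miR-204-5p and -2.62 to -2.34 for miR-211-5p. The cause of the changes listed next was not tested, beyond the fewer miRNAs that the 100 RPM filter keeps (188).

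The mouse numbers do not pair the animals, and W10 mouse 7 was alone in its block. With a block for the number the log2 fold change was -1.29 for miR-204-5p (limma adjusted p = 0.0014) and -2.51 for miR-211-5p (limma adjusted p = 0.001). The block called 127 miRNAs from W10 to Inv3 against 136 and 1 red blood cell miRNA against 0.

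In all, 150 miRNAs were called at P18 against W10, 164 at Lac7 against P18, 146 at Inv3 against Lac7 and 136 at Inv3 against W10. They were 88, 82, 79 and 69 with a pseudocount of 10 and 69, 67, 66 and 59 with the filter at 100 RPM. Counts of list members called moved as follows. From W10 to P18, fibroblast calls went from 1 to 0 with edgeR, DESeq2 and size factors, lymphocyte calls from 4 to 2 with edgeR and DESeq2, and red blood cell calls from 2 to 1 with these, size factors and the 100 RPM filter. Neural and eye calls went from 5 to 3 with a pseudocount of 10, the 100 RPM filter and size factors, and Runx2 calls from 5 to 2 with the first 2 of these. From P18 to Lac7, fibroblast calls went from 4 to 2 with DESeq2 and size factors, muscle calls from 0 to 1 with edgeR and DESeq2, and lymphocyte calls from 5 to 3 with DESeq2. Myeloid calls went from 1 to 0 with a pseudocount of 10, the 100 RPM filter, edgeR, DESeq2 and size factors, and Runx2 calls from 2 to 1 with the last 3. From Lac7 to Inv3, fat calls went from 2 to 1 with a pseudocount of 10, no filter, the 100 RPM filter, edgeR and DESeq2. Muscle calls went from 3 to 1 in the fit of 12 libraries and to 6 with edgeR, and myeloid calls from 2 to 1 with the 100 RPM filter. Neural and eye calls went from 4 to 2 with a pseudocount of 10 and the 100 RPM filter, and Runx2 calls from 3 to 5 with edgeR. From W10 to Inv3, lymphocyte calls went from 3 to 1 with edgeR, DESeq2 and size factors, and Runx2 calls from 4 to 2 with a pseudocount of 10 and the 100 RPM filter.

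With each mouse left out, fibroblast calls from W10 to P18 were 0 to 2 (2 without W10 mouse 1 or P18 mouse 6, and 0 without W10 mice 3, 4 or 5 or P18 mouse 3). From P18 to Lac7, muscle calls were 0 to 1 (1 without Lac7 mouse 4) and myeloid calls 0 to 1 (0 without P18 mouse 4 or Lac7 mouse 3). From Lac7 to Inv3, fat calls were 1 to 2 (1 without mouse 1 of either stage), muscle calls 1 to 4 and red blood cell calls 1 to 2 (1 and 2 without Lac7 mouse 1), and Runx2 calls 2 to 5. Red blood cell calls were also 1 to 2 from W10 to P18 (1 without W10 mouse 4 or P18 mice 3 or 4) and 0 to 1 from W10 to Inv3 (1 without W10 mice 3 or 7 or Inv3 mouse 5). The within-stage r of miR-204-5p with the Runx2 list was 0.47 to 0.70, passing adjustment without W10 mouse 3 or Lac7 mouse 4. No call changed direction. Relations that were not past the threshold changed sign for muscle (0.07, but -0.02 without the 2 farthest mice, -0.03 without W10 mouse 4 and -0.08 without Lac7 mouse 1), red blood cells (0.11, but -0.16 and, without W10 mouse 4, -0.11) and the neural and eye list (-0.14, but 0.27 and 0.17).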
